A study of Mus musculus with 2 samples.

Results

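The clustered protocadherin genes are the protein-coding genes of mouse chromosome 18 whose symbols start with Pcdhg, Pcdha or Pcdhb. In GENCODE vM21 on the mm10 build, 57 of 21853 protein-coding genes met this rule: 21 Pcdhg, 14 Pcdha and 22 Pcdhb genes, all on the plus strand. Each gene family forms its own cluster, taken here from the first gene start to the last gene end. The Pcdhg cluster spanned chr18:37661793-37841873 (180.1 kb), the Pcdha cluster chr18:36930184-37187661 (257.5 kb) and the Pcdhb cluster chr18:37264938-37524479 (259.5 kb). A peak was counted in a cluster when its summit lay inside it, and neighbouring sequence was followed for 100 kb.

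Clustered protocadherins are cell-surface adhesion proteins best known from neurons, where each cell chooses a small set of them by promoter choice, and the set gives the cell an identity used in self-avoidance of its branches. In the Pcdha and Pcdhg clusters each gene has its own promoter and a large variable exon, which is spliced to constant exons shared by the whole cluster, whereas Pcdhb genes are single units without constant exons. The C type genes (Pcdhac and Pcdhgc) lie at the 3′ side of the variable exons and are transcribed more uniformly among neurons than the others. In mouse brain, promoter choice depends on the insulator protein CTCF, on cohesin and on distant enhancers, among them a control region that lies downstream of the Pcdhg cluster.

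EP300, a lysine acetyltransferase found at active enhancers and promoters, was mapped by ChIP-seq, the sequencing of DNA fragments precipitated with an antibody, in lung tissue of B6NCrl mice at 0 days after birth. The 2 libraries formed 1 group with no other genotype or treatment and no contrast between conditions. They are numbered biological replicates 1 and 2 but share 1 donor and biosample record, so that their spread can be technical, and lung tissue mixes many cell types. The authors called 300000 peaks in each library and 300000 in both pooled, and derived from these lists 2 sets of peaks held reproducible, the optimal one with 43988 peaks and the conservative one with 42473. The lists held no read counts, so depth was unknown. All 8 lung marker genes (such as Sftpb, Sftpc and Nkx2-1) had at least 1 optimal peak nearest to their start within 100 kb, with a mean of 9.38 ± 6.93 (SD over genes). Of 7 neuron markers, 5 had one (mean 2.14 ± 1.86) and 0 had an optimal peak at the promoter, and none of the olfactory and glial markers Omp, Gfap and Olig2 had any. Among all protein-coding genes other than clustered protocadherins, 47.0% had one and the mean was 1.69 ± 3.36.

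EP300 peaks of the optimal set were found in the Pcdhg cluster and in neither of the others. The Pcdhg cluster held 6, or 33.3 per Mb (exact 95% Poisson interval 12.2 to 72.5). Over the genome the optimal set had 16.6 per Mb, which lies inside this interval. Of the 250 kb bins of the genome, 83.1% had an optimal density at or below that of Pcdhg. The Pcdha and the Pcdhb cluster held 0 each, and a count of 0 allows up to 3 peaks, which is 11.7 per Mb in Pcdha and 11.6 per Mb in Pcdhb, while the two-sided Poisson interval of a count of 0 reaches 14.3 and 14.2 per Mb. The conservative set had the same counts, 6 in Pcdhg against 0 in Pcdha and 0 in Pcdhb. The Pcdhg peaks were not all the same ones: 2 of the optimal peaks were not in the conservative set, and 2 conservative ones were not in the optimal set. Among the strongest peaks of each library, taken to the number of the optimal set, replicate 1 had 4 and replicate 2 had 7 in Pcdhg, and both had 0 in Pcdha and 0 in Pcdhb. These library counts correspond to 30.5 ± 11.8 per Mb in Pcdhg (SD, n = 2), so the gap to the other clusters exceeded the spread between the libraries.

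For folds, the floor of 3 peaks took the place of 0, and the 6 peaks of Pcdhg were taken without error. On this footing the optimal density of Pcdhg was at least 2.86-fold that of Pcdha and at least 2.88-fold that of Pcdhb. These folds are not confidence limits: the interval of Pcdhg starts at 12.2 per Mb, and those of Pcdha and Pcdhb reach 14.3 and 14.2. The two-sided exact conditional binomial test on the counts given the cluster lengths gave a Benjamini-Hochberg adjusted p = 0.00607 for both, over 5 comparisons. Peaks are not replicates, so these p-values cover the counting of peaks only. A cluster with no optimal peak is common at this scale. Of 10890 bins of 250 kb across the genome, 61.2% held at least 1 optimal peak, so that 38.8% held none. These bins include 1016 (9.33%) without even a pooled peak, among them those of most of chromosome Y. Counting such bins raises the 38.8% and the shares of bins at or below the density of each cluster.

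The deeper pooled list showed the same order with weak peaks in every cluster. It held 41 peaks in Pcdhg (228 per Mb, interval 163 to 309), 10 in Pcdha (38.8 per Mb, 18.6 to 71.4) and 9 in Pcdhb (34.7 per Mb, 15.9 to 65.8). Across the 250 kb bins of the genome, 88.2% had a pooled density at or below that of Pcdhg, 22.6% at or below that of Pcdha and 20.6% at or below that of Pcdhb. The pooled density of Pcdhg was 5.86-fold that of Pcdha (95% interval 2.89 to 13.1, adjusted p = 3.25e-08) and 6.57-fold that of Pcdhb (3.14 to 15.4, adjusted p = 2.76e-08, same exact test). Pcdha and Pcdhb could not be told apart in it (1.12-fold, 0.409 to 3.12, adjusted p = 0.823, same exact test).

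The size of the difference from Pcdha depended on the list. In replicate 1 alone the Pcdhg cluster had 33 peaks and the Pcdha cluster 19, a ratio of 2.48, and in replicate 2 alone they had 34 and 21, a ratio of 2.32 (exact test, adjusted p = 0.00414 and 0.00294). Both libraries had 10 peaks in Pcdhb. The difference between Pcdhg and the other clusters stood in each library, while its size against Pcdha was less than in the pooled list. In replicate 2 alone Pcdha also passed the threshold over Pcdhb (2.12-fold, exact test, adjusted p = 0.0493), which it did not in replicate 1 (1.92-fold, adjusted p = 0.0975).

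**Figure D1:**
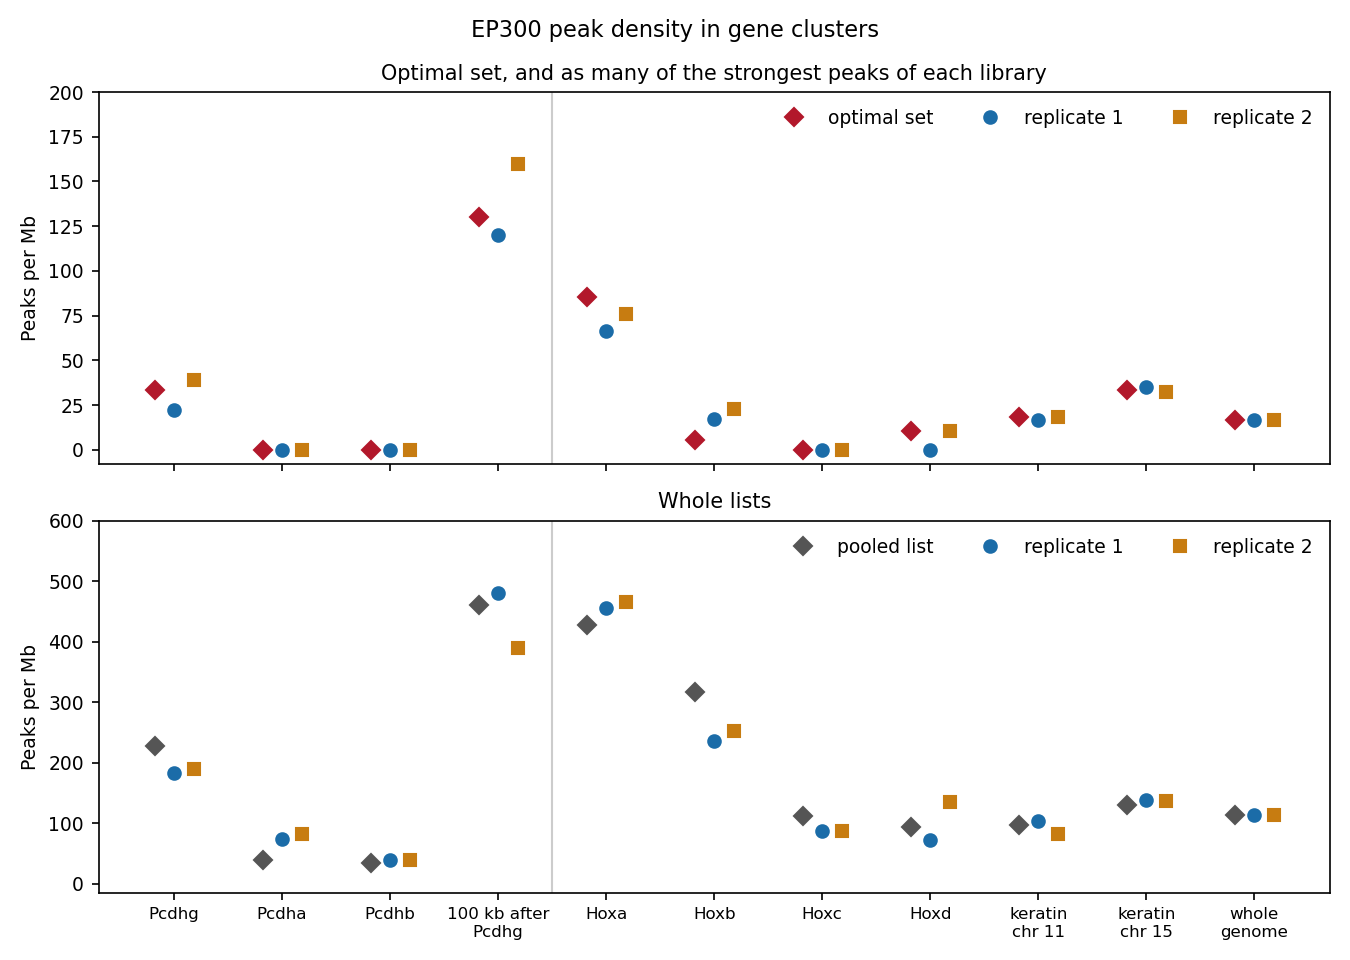
Density of EP300 peaks per Mb in the protocadherin clusters, the 100 kb after Pcdhg, the Hox and keratin gene clusters and the whole genome, in the optimal set with the strongest peaks of each library (top) and in the whole lists (bottom); each symbol is 1 list. Pcdha and Pcdhb sit at 0 in all 3 lists of the top panel, and Pcdhg at 22.2 to 38.9 per Mb.

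Repeated sequence also differed between the clusters and was least common in Pcdhg. The share of positions whose 31-base stretch occurs more than once in the genome was 6.92% in Pcdhg, 23.03% in Pcdha and 21.04% in Pcdhb. Within 1 kb of the start sites it was 4.65% in Pcdhg, 12.4% in Pcdha and 6.65% in Pcdhb. The share over the whole genome was not computed, so whether these values are high is not known. Reads that lie wholly inside repeated sequence cannot be placed with certainty, and the part of this in the peak counts was not tested.

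Within the Pcdhg cluster the optimal peaks lay at its 3′ side, around the C type genes and the constant exons. The split that follows was made after the positions had been seen and is a description. From Pcdhga1 to the variable exon of Pcdhga12, 106.7 kb with all 18 A and B type members, there were 0 optimal peaks and 9 pooled ones. The next 37.8 kb up to Pcdhgc3 held 1 optimal peak and 9 pooled ones. The last 35.5 kb, from Pcdhgc3 to the end of the last constant exon, held 5 optimal peaks and 23 pooled ones. In that last stretch the density over all peaks was 591 per Mb in replicate 1 and 563 per Mb in replicate 2, against 65.6 and 93.7 per Mb in the A and B type array. Both libraries thus had the higher density in the last stretch.

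**Figure D2:**
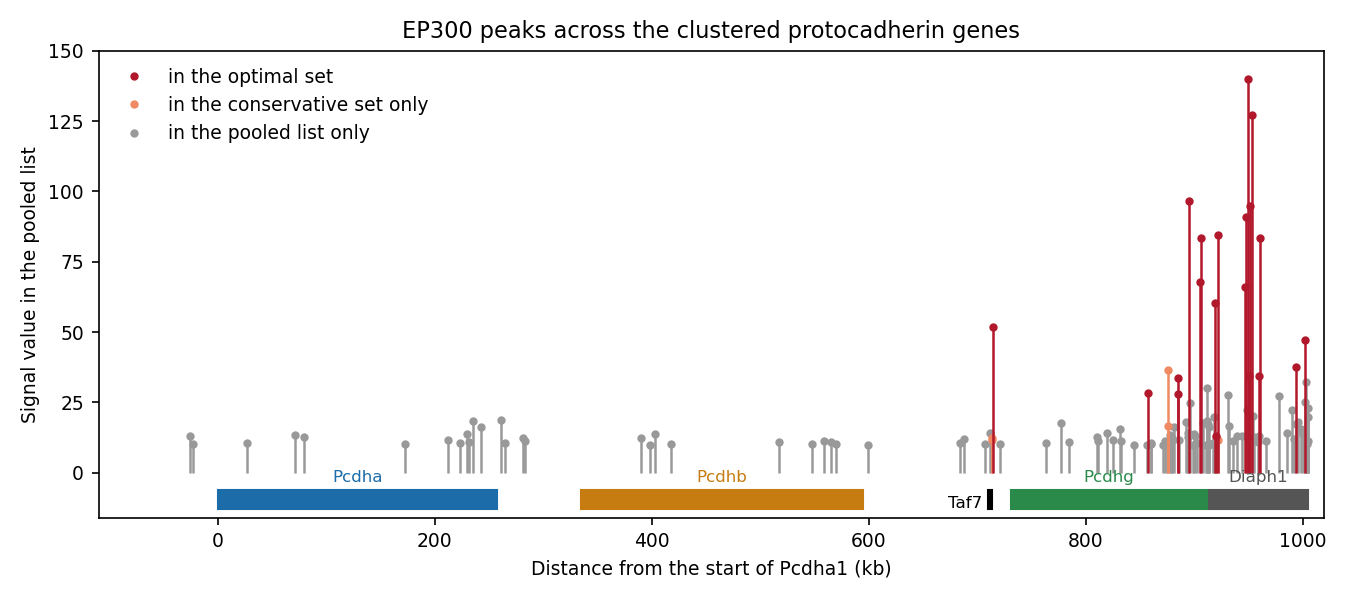
EP300 peaks of the pooled list by distance from the start of Pcdha1 (kb), each drawn as a line up to the authors' signal value in that list, with bars under the axis for the 3 clusters, Taf7 and Diaph1. Peaks of the optimal set (red) stand at Taf7, at the 3′ side of Pcdhg and in Diaph1, and none stands in Pcdha or Pcdhb, where the highest signal is 18.5.

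The 3 strongest peaks of the Pcdhg cluster lay in the introns between the constant exons, which every Pcdhg transcript with these exons spans. The first, with its summit at 37825397, lay 318 bp after the end of constant exon 1 and had a pooled signal of 96.6 (rank 7042 in the optimal set), with 58.5 in replicate 1 and 39.4 in replicate 2. The other two lay in the intron between constant exons 2 and 3. The peak at 37835782, 2.43 kb after exon 2, had a pooled signal of 67.7, with 47.6 in replicate 1 and 31.3 in replicate 2. The peak at 37836756, 3.15 kb before exon 3, had 83.3, with 64.1 in replicate 1 and 15.6 in replicate 2. All 3 were above the median signal of the optimal set, 48.5. The noncoding gene Gm38182 also spans these 3 positions, and the nearest protein-coding start is that of Pcdhgc5, 5.83 to 17.2 kb away.

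The last of them was at rank 5176 in replicate 1 and at rank 35709 in replicate 2. The scaling of the signal values between libraries is not stated, so ranks are given beside them. The peak at 37825397 held rank 6294 in replicate 1 and rank 8102 in replicate 2, and the one at 37835782 held rank 9541 in replicate 1 and rank 12360 in replicate 2.

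The other optimal peaks of the cluster were weaker. A peak at 37787567, in sequence between the variable exons of Pcdhga12 and Pcdhgc3 and 18.8 kb from the start of Pcdhgc3, had a pooled signal of 28.5, with 8.64 in replicate 1 (rank 122713) and 19.0 in replicate 2 (rank 26853). Replicate 2 carried this peak at a far higher rank than replicate 1. The remaining pair overlapped each other at the start of Pcdhgc4, at 37814889 with a pooled signal of 33.6 and at 37815088 with 27.9. Both overlapped the same library peaks, of signal 14.4 in replicate 1 and 20.3 in replicate 2. The peaks at 37787567 and 37815088 were not in the conservative set. With overlapping peaks merged, the Pcdhg cluster held 5 optimal peaks. Each of the 6 was overlapped by a peak of both libraries, and 5 of the 6 had a summit within 100 bp in both, against 85.9% of all optimal peaks.

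**Figure D3:**
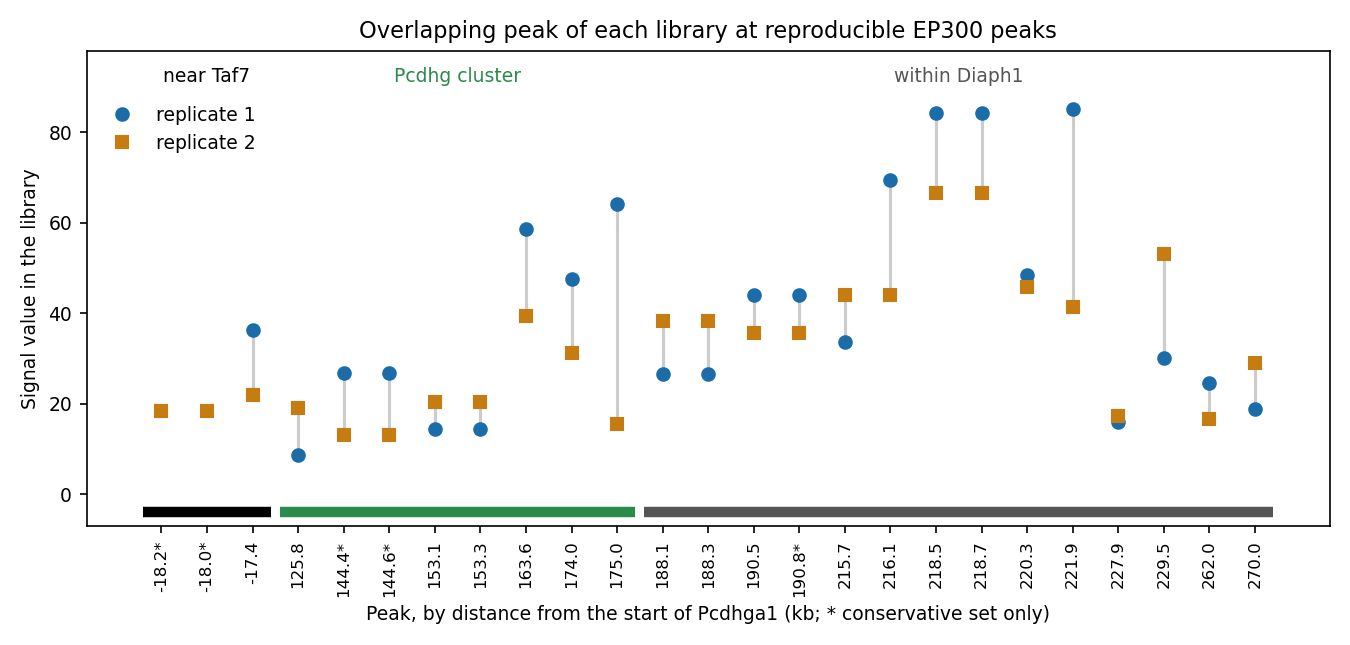
Signal of the strongest overlapping peak in replicate 1 (circles) and replicate 2 (squares) at each optimal or conservative-only peak, ordered by distance from the start of Pcdhga1 (kb); grey lines join the libraries. The highest library signal is 85.1, in Diaph1, while the peaks near Pcdhgc3 and Pcdhgc4 lie between 13.0 and 26.8. A position with 1 symbol had an overlapping peak in that library alone.

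At the promoters, EP300 was rare across all 3 families. A peak was counted at a promoter when its summit was no more than 1 kb from the start of a protein-coding transcript. In the optimal set, 1 of 21 Pcdhg genes, 0 of 14 Pcdha genes and 0 of 22 Pcdhb genes had one. That is 1 of 57 members (1.75%, 95% Wilson interval 0.310 to 9.29%), against 21.6% of the other 21796 protein-coding genes. In the pooled list 6 Pcdhg, 0 Pcdha and 5 Pcdhb genes had one, 11 of 57 (19.3%, 11.1 to 31.3%), against 55.5% of the other genes. The members share no condition contrast and adjoin one another, so these shares are a description.

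No pair of clusters differed in the count of members with a promoter peak past the threshold. In the optimal set the adjusted p was 1.0 for all 3 pairs (two-sided Fisher's exact test). Only 1 member had an optimal promoter peak, so that test could not have passed and decides nothing. Adjoining genes of 1 locus are not replicates, so these p-values cover the counting of members only. By the same exact test in the pooled list the difference was 28.6 percentage points between Pcdhg and Pcdha (adjusted p = 0.184), 5.84 between Pcdhg and Pcdhb (adjusted p = 0.736) and -22.7 between Pcdha and Pcdhb (adjusted p = 0.200). The density of pooled peaks in windows of 1 kb around start sites also missed the threshold. For Pcdhg over Pcdha it was at least 2.02-fold, with the floor of 3 peaks for Pcdha (exact binomial test, adjusted p = 0.0686). For Pcdhg over Pcdhb it was 1.82-fold (exact binomial test, adjusted p = 0.373). The difference between whole clusters in the pooled list was thus not resolved at the start sites alone, and the optimal set could not address it.

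The C type genes Pcdhgc3 and Pcdhgc4 had the strongest promoter peaks of the family. Pcdhgc4 (start 37815079) was the only member with an optimal promoter peak, with summits 190 and 9 bp from its start, and the strongest signals within 1 kb were 14.4 in replicate 1 (rank 54575) and 20.3 in replicate 2 (rank 24247). Pcdhgc3 (start 37806364) had a pooled signal of 36.6, with 26.8 in replicate 1 (rank 24027) and 13.0 in replicate 2 (rank 46037). Its peaks, whose summits also lay in an exon of the noncoding gene BC037039, were in the conservative set but not in the optimal one. Thus 2 of 57 members had a conservative promoter peak, against 20.8% of the other genes. Among the strongest peaks of a single library, replicate 1 had Pcdhgc3 alone and replicate 2 had Pcdhgc4 alone, so the libraries differed in which of the genes passed. The background was 24.1% of the other genes in replicate 1 and 22.7% in replicate 2. The remaining C type gene, Pcdhgc5, had a promoter peak in replicate 1 only, of signal 6.74.

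The alternately chosen members had weak promoter peaks or none. Pcdhga6 had the highest pooled signal among them, 17.8, with 6.503 in replicate 1 and 11.7 in replicate 2. Pcdhga11 had 11.7 in the pooled list and 6.73 in replicate 2, with none in replicate 1. In the Pcdhb cluster, Pcdhb6 had 13.6 in the pooled list and 8.68 in replicate 1, with none in replicate 2. Pcdhb5 had 12.4 in the pooled list and 7.45 in replicate 1, likewise with none in replicate 2. All of these were below 27.9, the signal of the weakest optimal peak in the Pcdhg cluster. That is no cutoff of the set, which reached down to 13.1 in Diaph1 and to 9.905 over the genome. Pcdhb14 had 11.1 in the pooled list, 10.2 in replicate 1 and 5.47 in replicate 2, and Pcdhb18 had 11.2 in the pooled list and 5.27 in replicate 2 alone. The other members with a pooled promoter peak were Pcdhb16, Pcdhga7 and Pcdhgb6, with pooled signals of 10.3, 11.02 and 11.4.

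In the whole lists, 12 members had a promoter peak in replicate 1, against 56.2% of the other genes, and 11 in replicate 2, against 53.3%. A promoter peak in both libraries was found for 4 of the 57, namely Pcdhb14, Pcdhga6, Pcdhgc3 and Pcdhgc4. In the Pcdha cluster no member had one in both: Pcdha2 (6.37) and Pcdha9 (6.01) had one in replicate 1 and Pcdha4 (5.55) in replicate 2. Its C type genes, Pcdhac1 and Pcdhac2, had none in any list. The same held for the outermost genes Pcdha1, Pcdhb1, Pcdhb22 and Pcdhga1. In all, 37 of the 57 had no promoter peak in the pooled list or in either library, 12 of them Pcdhg, 11 Pcdha and 14 Pcdhb genes. For the other genes, the shares with a promoter peak in both libraries or in none of these lists were not computed. The counts of 4 and 37 are thus a description only.

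**Figure D4:**
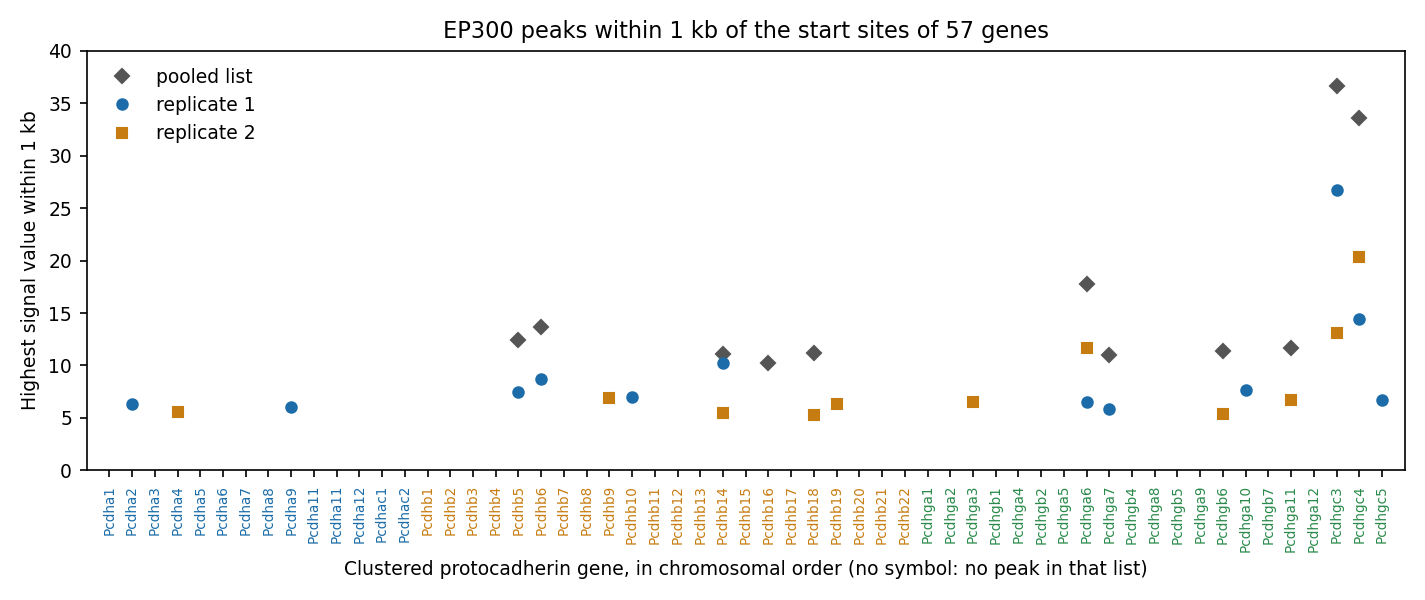
Highest signal of a peak within 1 kb of each gene's start sites, in the pooled list (diamonds), replicate 1 (circles) and replicate 2 (squares), for the 57 genes in chromosomal order; a gene with no symbol had no peak in that list. Pcdhgc3 and Pcdhgc4 stand highest with 36.6 and 33.6 in the pooled list, and 37 genes have no symbol.

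The weak peaks of the Pcdha cluster also lay mostly at its 3′ side. From Pcdha1 to Pcdhac1 there were 3 pooled peaks, 18.8 per Mb, and from Pcdhac1 to the end of the last constant exon 7, 71.7 per Mb. In single libraries the 3′ stretch had 143 and 123 peaks per Mb, against 31.3 and 56.3 in the 5′ stretch, so both libraries had the same order. The strongest, at 37165615 in the intron between constant exons 2 and 3, had a pooled signal of 18.5 and 13.1 in replicate 1, with no overlapping peak in replicate 2. The next, at 37172360 in the same intron, had 16.3, with 11.8 in replicate 1 and 8.29 in replicate 2. These positions correspond in the gene model to the last intron of Pcdhg, where the signals were 67.7 and 83.3. This split, too, was made after the positions were seen.

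Sharing of pooled peaks between the libraries in Pcdhg was near the genome's level. A summit within 100 bp in both was found for 9 of 41 pooled peaks in Pcdhg (22.0%), 2 of 10 in Pcdha and 0 of 9 in Pcdhb, against 29.7% over the genome. With any overlap of 1 bp, a definition added after the data had been seen, the counts were 17 of 41 in Pcdhg (41.5%), 3 of 10 in Pcdha and 0 of 9 in Pcdhb, against 44.6% over the genome. The counts in Pcdha and Pcdhb are too small for a share. The optimal set took in 14.6% of the pooled peaks of Pcdhg (6.88 to 28.4%) and 14.7% of those of the genome.

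Around the clusters, too, most optimal peaks lay beyond the 3′ end of Pcdhg. The 100 kb before Pcdha1 and the 77.3 kb between Pcdha and Pcdhb held 0 optimal peaks each. The 137.3 kb between Pcdhb and Pcdhg held 1, which lay 160 bp from the start of Taf7, a gene for a subunit of the general transcription factor TFIID. Its signal was 52.0 in the pooled list, 36.4 in replicate 1 and 21.8 in replicate 2. Slc25a2, a mitochondrial carrier gene in the same gap, had no promoter peak in the optimal or pooled list, nor had the neighbouring gene models Gm42416, Gm37013 and Gm37388.

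The 100 kb after Pcdhg held 13 optimal peaks, or 130 per Mb (interval 69.2 to 222), and 46 pooled ones. The strongest peaks of each library gave 12 in replicate 1 and 16 in replicate 2, or 140 ± 28.3 per Mb (SD, n = 2). All 13 lay in introns of Diaph1, which encodes a formin that nucleates actin filaments, runs on the minus strand towards the protocadherins and ends 1.73 kb after the Pcdhg cluster. They lay 7.99 to 89.9 kb after the Pcdhg cluster, 11 of them within 50 kb. Diaph1, 91.9 kb long, fills most of this 100 kb, so nearly any peak in the stretch would fall inside the gene. By distance to the nearest protein-coding start, 10 of the 13 were assigned to Diaph1 and 3 to Pcdhgc5. Distance is not a measured link, and which gene these peaks act on was not tested. The next optimal peak outside the 100 kb lay 155.8 kb after the cluster, with a signal of 96.1.

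The strongest peaks of the whole neighbourhood lay in this stretch. The peak at 37880249 had a pooled signal of 139.9, with 84.2 in replicate 1 (rank 2617) and 66.5 in replicate 2 (rank 2485). The peak at 37883674 had 127, with 85.1 in replicate 1 and 41.5 in replicate 2. Both stood above the strongest peak inside the Pcdhg cluster, 96.6. The peaks at 37882057 and 37877921 followed with 94.8 and 90.97, and the median of the 13 was 65.97. All 13 were overlapped by a peak of both libraries, as were 98.9% of all optimal peaks. A summit within 100 bp in both was found for 8 of the 13 (61.5%), against 85.9% of all optimal peaks. The 46 pooled peaks of the stretch were shared within 100 bp by both libraries in 19 cases (41.3%). The share of repeated 31-base stretches was 3.37% here and 2.56% from Pcdhgc3 to the end of the Pcdhg cluster, both below the 7.98% of the Pcdhg sequence before Pcdhgc3.

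When optimal peaks were assigned to the nearest start within 100 kb, 3 of the 57 members received any: Pcdhgc5 with 6, Pcdhgc4 with 2 and Pcdhgc3 with 1. Among the other protein-coding genes 47.0% received at least 1. The mean was 0.158 ± 0.841 for members and 1.69 ± 3.36 for the other genes (SD over genes). Starts lay a median of 5.35 kb apart in Pcdhg, 7.32 kb in Pcdha and 7.78 kb in Pcdhb. The part of this crowding in the counts was not tested. The 6 peaks of Pcdhgc5 include 3 in the introns between the constant exons and 3 in Diaph1.

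Other families of adhesion genes differed in how many peaks lay nearest to them. Of the 12 non-clustered protocadherins, which lack the shared exons, 7 had an optimal peak (mean 1.83), led by Pcdh1 with 11, Pcdh12 with 3 and Pcdh19 with 3. Of 7 classical cadherins, 5 had one (mean 4.14), led by the endothelial cadherin gene Cdh5 with 13 and the epithelial cadherin gene Cdh1 with 7, then Cdh13 with 5. Of 6 genes for cytoplasmic partners of protocadherins, 3 had one, namely the kinase genes Fyn with 12 and Ptk2 with 5, and Pdcd10 with 1. Of 13 genes for proteins that regulate the clusters, 8 had one and 5 had an optimal promoter peak, with the cohesin subunit genes Rad21 and Stag2 at 4 each and the cohesin release factor gene Wapl at 3. Of the other protein-coding genes, 47.0% had an optimal peak nearest to their start and 21.6% had one at the promoter. Set against these, the shares above are a description of small lists. Nerve-associated glial and autonomic markers, which the lung could hold, had 1 peak in all, at Sox10.

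Other gene clusters showed that family arrays differ widely. Per Mb, the optimal set had 85.5 peaks in Hoxa, 33.6 in the keratin cluster of chromosome 15 and 18.3 in that of chromosome 11. It had 10.3 in Hoxd, 5.75 in Hoxb and 0 in Hoxc, against 33.3 in Pcdhg. The Hoxa cluster had 66.5 strongest-list peaks per Mb in replicate 1 and 76.0 in replicate 2, and the Hoxc cluster had 0 in both, as had Pcdha and Pcdhb. In the pooled list, Pcdha and Pcdhb had fewer peaks per Mb than each of the 4 Hox and 2 keratin clusters. In single libraries this order did not hold throughout for Pcdha, which had 73.8 per Mb in replicate 1, against 72.3 in Hoxd, and 81.6 per Mb in replicate 2, close to 82.0 in the keratin cluster of chromosome 11. A promoter peak of the optimal set was present at 3 of 11 Hoxa genes and at 0 of 10 Hoxb, 0 of 9 Hoxc and 0 of 9 Hoxd genes. It was present at 2 of 27 and 3 of 26 keratin genes of chromosomes 11 and 15. The share was 21.6% over protein-coding genes other than clustered protocadherins, and a 0 in so few genes says little. In the pooled list the counts were 6 Hoxa, 6 Hoxb, 2 Hoxc and 1 Hoxd genes, and 4 and 7 keratin genes, against 55.5%.

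The promoters of the 3 families differed in base composition, and CTCF matches within 1 kb of the start differed too. The choice of members used neither. In 300-base windows around the start (250 bases before it to 50 after), the median GC content was 42.0% in Pcdhg, 38.7% in Pcdha and 39.5% in Pcdhb, against 55.0% over the other genes. A ratio of observed to expected CpG of at least 0.6 was found for 9 of 21 Pcdhg, 9 of 14 Pcdha and 3 of 22 Pcdhb genes, and for 44.4% of the other genes. Pcdhgc3, with the strongest promoter peak, had a GC content of 62.0% and a CpG ratio of 0.778, while Pcdhgc4 had 47.3% and 0.445. Pcdhac1 had 60.7% and 0.623 and no peak, so GC-rich promoters were found with and without a peak.

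A match to the CTCF consensus within 1 kb of the start, on either strand, was present for 0 of 21 Pcdhg, 6 of 14 Pcdha and 0 of 22 Pcdhb genes, and for 1.24% of the other genes. The 6 were Pcdha1, Pcdha4, Pcdha6, Pcdha7, Pcdha8 and Pcdha12, of which Pcdha4 alone had a promoter peak in any list. In the 300-base windows 0 of the 57 members had a CTCF match, against 0.46% of the other genes. The families thus did not differ in that narrower window. No match of the RE1 consensus, which the repressor REST binds, was found within 1 kb of any member's start, against 0.666% of the other genes. In the central 100 bases of the 20 optimal peaks in and around the clusters, there were 0 matches of the CTCF, RE1, glucocorticoid response element or AP-1 (TGANTCA) sequences. Over all optimal peaks the shares were 0.393%, 0.0114%, 1.45% and 7.67%. Of the 121 pooled peaks in and around the clusters, 3 held an AP-1 match, all 3 in the stretch of Diaph1. These are matches of letters in fixed windows and say nothing on binding.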

How the data were processed

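EP300 ChIP-seq peaks of 2 libraries of newborn mouse lung were used. The deposited notes state alignment to mm10, peak lists for single libraries and for the pooled reads, and conservative and optimal sets chosen by the irreproducible discovery rate. For the aligner, the peak caller and their versions, names are not given in the sources used here. Each signal value is the authors' deposited one for that peak, with no scaling stated, and served to rank and describe. Summits were taken from the deposited start and offset fields. The lists hold no read counts, so intervals cover the counting of peaks only.

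Genes were those of GENCODE vM21 (GRCm38.p6, mm10). In it 2 members carry the symbol Pcdha11 and were kept apart by gene ID, and Pcdhgb8, a polymorphic pseudogene there, was not a member. The members and lists were chosen with earlier results of these data known. Named genes were members with an optimal promoter peak, the 4 with most pooled promoter peaks per cluster (ties by signal), the ends of each cluster, C type genes, neighbours and the 3 with most peaks per list; Pcdhb16, Pcdhga7, Pcdhgb6 and members with a peak in 1 library only were named after their values were seen. Densities were compared by exact conditional binomial tests, 5 in all because Pcdha and Pcdhb had no optimal peak to compare, and promoter counts by Fisher's exact test, both Benjamini-Hochberg adjusted with a threshold of 0.05. Library partners of a peak were the strongest overlapping ones, a definition chosen after seeing the data. Counting steps were tested on simulated data. Alternatives were the conservative set, the stronger 50% of a list, each library alone, merged peaks, other windows, start sites and flank widths. Python 3.11.15, numpy 2.4.6, pandas 2.3.3, scipy 1.17.1, numba 0.67.0 and matplotlib 3.10.9 were used. No sequence of this locus is printed.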

Additional observations from a re-analysis of the deposited data

Results flagged for a closer look

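The conservative set, which the counts of optimal peaks do not use, held 5 peaks in or within 100 kb of the clusters that were not in the optimal set. They were a pair at Taf7 (summits 37643553 and 37643800, pooled signals 12.5 and 11.5), a pair at the start of Pcdhgc3 (37806205 and 37806415, 36.6 and 16.7) and 1 in Diaph1 (37852562, 11.6). The Taf7 pair overlapped a peak of replicate 2 (signal 18.5) and none of replicate 1. Over the genome, 7232 of 42459 conservative peaks (17.0%) were not in the optimal set.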

How the results depend on the processing

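The absence of optimal peaks from Pcdha and Pcdhb held in the conservative set, in the strongest peaks of each library alone and for any overlap with the cluster. The stronger 50% of the set and merged peaks are drawn from the optimal set itself. They could only give 0 there and add no check. With the stronger 50% of the list, Pcdhg kept 3 optimal peaks, the sequence within 100 kb outside the clusters 9, and pooled densities per Mb were 105.5 in Pcdhg, 15.5 in Pcdha and 3.85 in Pcdhb. Leaving out 1 library gave Pcdha densities of 73.8 to 81.6 per Mb over whole lists, and a ratio of Pcdha over Pcdhb of 1.92 to 2.12. In windows around start sites, the pooled ratios missed the threshold at 2.02 (Pcdhg over Pcdha, with the floor of 3 peaks for Pcdha) and 1.82 (Pcdhg over Pcdhb). The optimal-list ratio was not computed there, with too few peaks. Members with a promoter peak were 2 in Pcdhg with the conservative set, and 6 in Pcdhg and 5 in Pcdhb with the whole pooled list. The causes were not tested. No paired analysis was possible because the libraries form 1 group. Depth was unknown, so weak peaks absent from a list may be below its reach. With 2 libraries of 1 record, the spread cannot be told apart from technical variation.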
